A study of Mus musculus with 8 samples.

Results

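The plasminogen activator system of cultured mouse tendon stem cells (TSCs) was described here through 8 genes: the activators Plat and Plau, the receptor Plaur, the surface docking pair Anxa2 and S100a10, and the serpin inhibitors Serpine2, Serpinb2 and Serpinf2. They were taken by symbol from a deposited table of 19301 genes, and all 8 were found. The genes were selected with the difference between the culture conditions in these same libraries already known, so their values and fold changes are given as a description, without a test. TSCs came from mouse patellar tendon by collagenase digestion and were kept as primary cultures in low glucose DMEM with fetal bovine serum. For 4 days they were cultured either in low glucose (LG, 5.5 mM glucose with the solvent DMSO) or in high fat, high glucose medium (HFHG), which had more glucose and, in addition, 300 µM of the saturated fatty acid palmitic acid. Glucose and palmitic acid were changed together, so their parts cannot be told apart. Each group had 4 libraries, described as biological replicates. The sources used here do not say whether these came from separate mice, and the p-values below measure only the spread between the libraries.

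Plasminogen is a circulating zymogen made mainly by the liver. Tissue-type activator (Plat) and urokinase (Plau) cleave it to plasmin, a serine protease that dissolves fibrin, degrades matrix proteins and activates some pro-metalloproteinases and growth factors. Urokinase works on the cell surface when held by its receptor Plaur, and the Anxa2 and S100a10 heterotetramer binds plasminogen and tissue-type activator. Serpins stop the activators or plasmin by forming covalent complexes, which receptors of the LDL receptor family take up. In tendon, a tissue rich in collagen, the system is known mainly from injury and repair.

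Expression was deposited as FPKM (the fragments of a gene, scaled to its length and to the number of fragments mapped in that library), a per-length scale on which the levels of different genes can be compared. Such comparisons rest on the gene lengths of an annotation that is not given in the sources used here. The values were whole numbers of reads multiplied by a constant, and the recovered library totals were 34308108 to 37362725 reads. LG replicate 4 stood apart from the other LG libraries in the second principal component. Differences were fitted with limma on log2(FPKM + 0.1) for the 11710 genes that reached 0.5 FPKM in 4 libraries or more, and the log2 fold change (log2FC) is HFHG minus LG on that scale. The same fit covered 7 pathway lists with 98 other genes, also chosen with earlier results of these data known. Tendon markers were unevenly present: Scx (0.983 to 2.88 FPKM over the 8 libraries) and Tnmd (0.22 to 1.19 FPKM) were low. The 10 tendon markers, with Col1a1, Col1a2 and Dcn among them, summed to 2497 to 2550 FPKM in HFHG and 1621 to 1656 FPKM in LG. Scx, Tnmd and Mkx (6.05 to 9.30 FPKM for Mkx) made up little of these sums, so nearly all came from the other markers. At an adjusted p-value below 0.05, 7 of the 10 were higher in HFHG and 2 lower, beside 34.0% and 30.8% of all genes. Scx (log2FC 0.61) and Tnmd (log2FC 0.86) were among the higher, and Mkx was among the lower (log2FC -0.35). The Scx libraries overlapped, with 1.53 to 2.88 FPKM in HFHG and 0.983 to 1.76 FPKM in LG. Tnmd had as few as 10 reads in a library. By qPCR, the paper reports the opposite for Scx and Tnmd, both decreased in HFHG medium, and no significant change of Mkx. The reason for this difference was not tested.

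Of the 8 genes, 7 passed the filter on low values, and Serpinf2 did not. Plat, S100a10 and Serpine2 were higher in HFHG, and Plau, Plaur, Serpinb2 and Anxa2 were lower. All 7 had an adjusted p-value below 0.05 in the fit over all genes, 3 in the higher and 4 in the lower direction, where 34.0% and 30.8% of all 11710 genes were called higher and lower. Beyond a 2-fold change, 1 of the 7 was higher and 0 were lower, against 3.68% and 1.63% of all genes. The FPKM of the groups did not overlap in 3 genes that were higher and 3 that were lower, against 31.1% and 28.1% of all genes. Because the genes were chosen from this contrast, nothing is read from these counts. The median of the 7 log2FCs was -0.07 and that of all tested genes was 0.02.

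**Figure D1:**
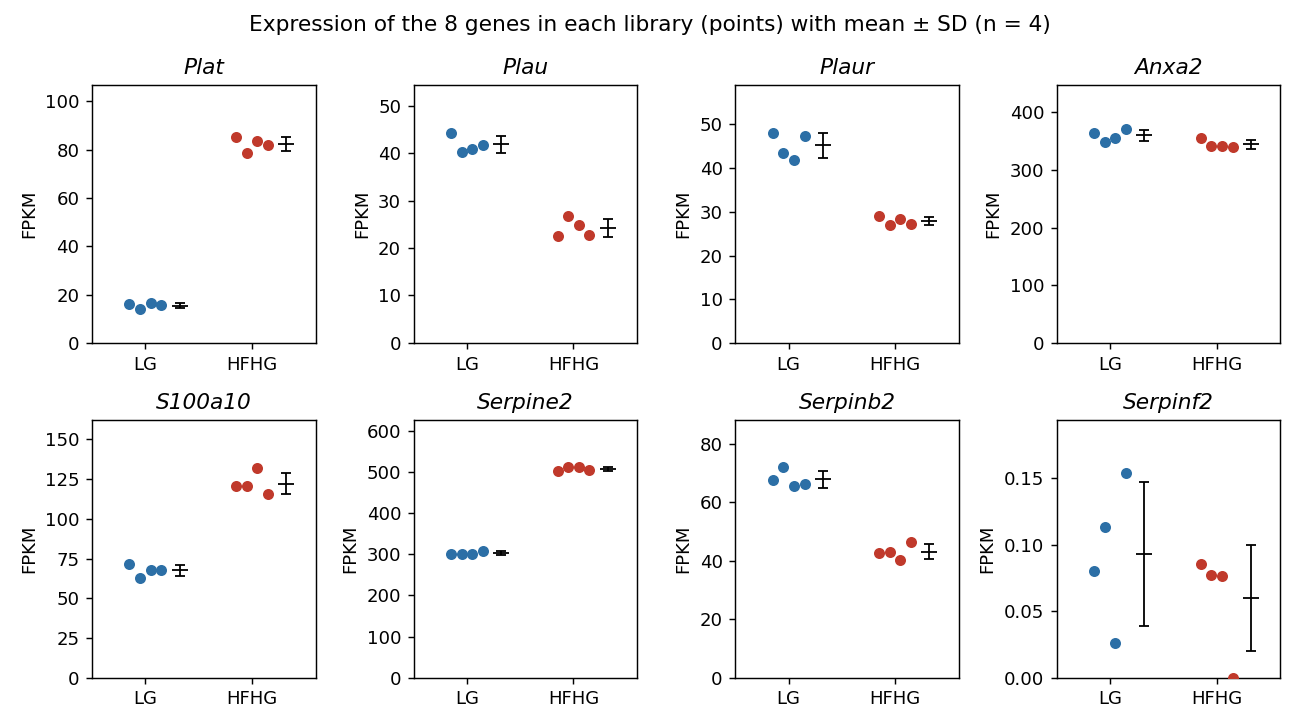
FPKM of the 8 genes in each library, in 1 panel per gene with its own axis starting at 0. Points are libraries (LG blue, HFHG red), and the bars beside them are the mean ± SD of 4 libraries. The groups are apart for Plat, Plau, Plaur, S100a10, Serpine2 and Serpinb2, and they overlap for Anxa2 and Serpinf2.

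The levels covered a wide range, and their order differed between the media. In LG the order of the means was Anxa2 (360 FPKM), Serpine2 (303 FPKM), Serpinb2 (67.8 FPKM), S100a10 (67.6 FPKM), Plaur (45.2 FPKM), Plau (41.8 FPKM), Plat (15.5 FPKM) and Serpinf2 (0.0931 FPKM). Overlapping libraries were seen for neighbours in this order, Serpinb2 with S100a10 and Plaur with Plau. In HFHG the order was Serpine2 (507 FPKM), Anxa2 (344 FPKM), S100a10 (122 FPKM), Plat (82.4 FPKM), Serpinb2 (43.1 FPKM), Plaur (27.9 FPKM), Plau (24.2 FPKM) and Serpinf2 (0.0597 FPKM), and no neighbours overlapped, though the lowest Plaur library (27.0 FPKM) was close to the highest Plau library (26.7 FPKM). Plat thus stood below both Plau and Plaur in LG and above both in HFHG.

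The RefSeq promoter table (GRCm38.p6) held 5 of the 8 genes. The 250 bases before the start annotated in RefSeq were searched. They are shown for 4 expressed genes up to the nearest GENCODE exon of the gene. These 4 are shown because Plaur and Serpinb2 were both lower in HFHG while Serpine2 was higher and Anxa2 changed little. The 6 motifs named after the sequences were searched on both strands, and matches are in capitals. Adjacent GGGCGG matches can share a base and were each counted.
Plaur: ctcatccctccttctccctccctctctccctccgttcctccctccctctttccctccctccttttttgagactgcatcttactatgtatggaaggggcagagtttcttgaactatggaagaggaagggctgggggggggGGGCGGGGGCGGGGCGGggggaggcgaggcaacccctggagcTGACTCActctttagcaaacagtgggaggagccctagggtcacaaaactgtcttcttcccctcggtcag
Serpinb2: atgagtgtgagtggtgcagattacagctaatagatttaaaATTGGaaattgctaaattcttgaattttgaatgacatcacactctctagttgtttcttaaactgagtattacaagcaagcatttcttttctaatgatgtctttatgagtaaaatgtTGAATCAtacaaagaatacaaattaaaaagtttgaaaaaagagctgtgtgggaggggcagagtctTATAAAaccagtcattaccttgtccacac
Anxa2: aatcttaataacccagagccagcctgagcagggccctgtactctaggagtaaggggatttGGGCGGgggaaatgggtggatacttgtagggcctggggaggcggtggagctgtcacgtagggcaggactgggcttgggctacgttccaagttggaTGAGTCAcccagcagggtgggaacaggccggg
Serpine2: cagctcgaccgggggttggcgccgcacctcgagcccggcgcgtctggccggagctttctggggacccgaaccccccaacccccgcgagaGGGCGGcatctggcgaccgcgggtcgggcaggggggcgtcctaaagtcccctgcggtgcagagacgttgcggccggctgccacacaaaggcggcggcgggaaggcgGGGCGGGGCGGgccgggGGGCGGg
The printed bases lie at chr7:24462233-24462482 (plus strand, Plaur), chr1:107511173-107511422 (plus strand, Serpinb2), chr9:69453433-69453619 (plus strand, Anxa2) and chr1:79858697-79858915 (minus strand, Serpine2). GENCODE places the last 63 bases of the Anxa2 window, the last 31 of the Serpine2 window and the last 90 of the Serpinf2 window in an exon of the gene, and these bases are not shown. GENCODE starts Serpine2 at 79861180 on the minus strand, so the whole Serpine2 window lies inside the GENCODE gene. It lies before a RefSeq start only. The counts that follow are for all 250 bases. TGANTCA, the letters bound by AP-1 factors, occurred once each in Plaur, Serpinb2 and Anxa2, and 6.75% of the 32851 windows in the table hold it. GGGCGG, the letters of a GC box, occurred 6 times in Serpine2, 3 times in Plaur and 3 times in Anxa2, of which 4, 3 and 1 are in the printed bases, and 32.7% of all windows hold it. TATAAA occurred in Serpinb2 and, within the exon that is not shown, in Anxa2, against 12.4% of all windows. CCAAT occurred in Serpinb2, against 33.8% of all windows. TGACGTCA (1.55% of all windows) and CACGTG (6.02%) occurred in none of these windows. In the Serpinf2 window no motif was found. The GC content was 32.4% in the Serpinb2 window and 78.8% in the Serpine2 window, with a median of 52.4% over all windows. A match is only a match of letters, and binding was not measured.

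Plat, which encodes tissue-type plasminogen activator, differed most between the media. The gene (NCBI gene 18791) lies on chromosome 8 of GRCm38 from 22757727 to 22782844, on the plus strand. Its FPKM in HFHG replicates 1 to 4 was 85.4, 78.7, 83.6 and 81.7. In LG replicates 1 to 4 it was 15.9, 14.0, 16.4 and 15.6. Every HFHG library was far above every LG library, and replicate 2 was the lowest of each group. The means were 82.4 ± 2.86 FPKM in HFHG and 15.5 ± 1.02 FPKM in LG (SD, n = 4 each), with a log2FC of 2.41 (SE 0.0460). Among all 11710 genes this was the 22nd largest increase. The values rested on 1353 to 8479 reads per library. In a tissue, Plat is known as a product of endothelium, so endothelial markers were read beside it. Pecam1, Cdh5, Kdr, Tie1 and Emcn were below 0.5 FPKM in all libraries. The 7 endothelial markers summed to 1.66 to 1.78 FPKM in HFHG and 1.88 to 2.23 FPKM in LG. The remaining markers moved apart: Tek rose from 0.547 ± 0.0421 to 0.800 ± 0.0973 FPKM (SD, n = 4 each, adjusted p = 0.00576 by limma), and Vwf fell from 1.04 ± 0.0763 to 0.393 ± 0.0271 FPKM (SD, n = 4 each, adjusted p = 1.8e-06 by limma). In bulk RNA, fewer cells of a type and less RNA per cell cannot be told apart, here and for the genes below.

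The 5 tested genes whose log2 values were most like those of Plat over the 8 libraries were Loxl3 (Pearson r = 0.9994), Grb14 (0.9993), Gas6 (0.9993), Adm (0.9991) and Glul (0.9990). The likeness is a description over 8 libraries in 2 groups, and r was above 0.99 for 408 genes. Their log2FCs were 1.18 for Loxl3, 1.94 for Grb14, 1.61 for Gas6, 0.97 for Adm and 0.88 for Glul. Genes picked for likeness to Plat are bound to be higher in HFHG, so nothing is read from that direction. Each rose by less than Plat.

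Plau, which encodes urokinase, was lower in HFHG. The gene (NCBI gene 18792) lies on chromosome 14 from 20836660 to 20843385, on the plus strand. HFHG replicates 1 to 4 had 22.5, 26.7, 24.9 and 22.8 FPKM. LG replicates 1 to 4 had 44.2, 40.4, 41.0 and 41.8 FPKM. The highest HFHG library stayed well below the lowest LG library. The means were 24.2 ± 1.98 and 41.8 ± 1.70 FPKM (SD, n = 4 each), and the log2FC was -0.79 (SE 0.0527).

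The activators moved in opposite directions, and within a library they can be set against each other. Plat made up 79.2%, 74.6%, 77.0% and 78.2% of the summed FPKM of Plat and Plau in HFHG replicates 1 to 4. In LG replicates 1 to 4 it made up 26.5%, 25.8%, 28.5% and 27.1%. By FPKM, the more abundant activator transcript was therefore Plat in each HFHG library and Plau in each LG library. Their sum was 107 ± 1.88 FPKM in HFHG and 57.3 ± 2.37 FPKM in LG (SD, n = 4 each). These ratios use the contrast by which the genes were chosen, and they are not tested.

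Plaur, the urokinase receptor, was lower in HFHG like its ligand. The gene (NCBI gene 18793) lies on chromosome 7 from 24462484 to 24475968, on the plus strand. HFHG replicates 1 to 4 had 29.0, 27.0, 28.4 and 27.1 FPKM. LG replicates 1 to 4 had 48.1, 43.4, 42.0 and 47.3 FPKM. All HFHG libraries lay below all LG libraries, and the LG libraries were spread more widely. The means were 27.9 ± 0.973 and 45.2 ± 2.95 FPKM (SD, n = 4 each), with a log2FC of -0.69 (SE 0.0454). The ratio of Plau to Plaur was 0.775 to 0.9904 in HFHG and 0.884 to 0.976 in LG. These ranges overlapped, unlike those of either gene alone.

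S100a10 and Anxa2, the subunits of the plasminogen docking complex, differed from each other. S100a10 (NCBI gene 20194, chromosome 3 from 93555080 to 93564643, plus strand), the small subunit whose tail binds plasminogen, had 121, 121, 132 and 116 FPKM in HFHG replicates 1 to 4. It had 71.7, 63.0, 68.0 and 67.5 FPKM in LG replicates 1 to 4. The groups were apart, with HFHG replicate 3 the highest. The means were 122 ± 6.88 and 67.6 ± 3.58 FPKM (SD, n = 4 each), and the log2FC was 0.85 (SE 0.0443).

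Anxa2 (NCBI gene 12306, chromosome 9 from 69453620 to 69491795, plus strand), the membrane-binding annexin of the complex, had 355, 341, 341 and 339 FPKM in HFHG replicates 1 to 4. It had 365, 349, 355 and 371 FPKM in LG replicates 1 to 4. HFHG replicate 1 reached into the LG range, so the groups overlapped. The means were 344 ± 7.21 and 360 ± 9.81 FPKM (SD, n = 4 each), with a log2FC of -0.07 (SE 0.0250). Its direction depended on the scaling, with -0.01 after rescaling to the same sum and 0.18 after quantile normalization. An antisense gene, Gm16144, overlaps Anxa2 over 2570 bases, and whether reads were counted by strand is not given in the sources used here. How reads shared with near-identical copies of Anxa2 or S100a10 were assigned is not given either. Per 100 FPKM of Anxa2 there were 34.1, 35.4, 38.7 and 34.1 FPKM of S100a10 in HFHG replicates 1 to 4, and 19.7, 18.1, 19.2 and 18.2 in LG replicates 1 to 4. The amount of S100a10 transcript relative to Anxa2 was thus higher in each HFHG library.

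Serpine2 encodes protease nexin-1, an inhibitor of thrombin and of both activators that is held at the cell surface and in the matrix. The gene (NCBI gene 20720) lies on chromosome 1 from 79794197 to 79861180, on the minus strand. HFHG replicates 1 to 4 had 503, 511, 511 and 504 FPKM. LG replicates 1 to 4 had 301, 299, 301 and 309 FPKM. The libraries of a group were close to each other, with coefficients of variation of 0.889% in HFHG and 1.41% in LG. The means were 507 ± 4.51 and 303 ± 4.28 FPKM (SD, n = 4 each), and the log2FC was 0.75 (SE 0.0198). It was 0.81 after rescaling to the same sum and 0.93 after quantile normalization. Set against the activators, the FPKM of Serpine2 was 4.66 to 4.85 times the sum of Plat and Plau in the HFHG libraries and 4.999 to 5.51 times in the LG libraries, so the ratio was lower in each HFHG library although Serpine2 itself was higher.

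Serpinb2 encodes plasminogen activator inhibitor 2, a serpin that inhibits urokinase and is largely kept inside the cell. The gene (NCBI gene 18788) lies on chromosome 1 from 107511423 to 107535478, on the plus strand. HFHG replicates 1 to 4 had 42.8, 43.0, 40.2 and 46.4 FPKM. LG replicates 1 to 4 had 67.7, 71.9, 65.6 and 66.2 FPKM. The groups were apart in the direction opposite to Serpine2. The means were 43.1 ± 2.52 and 67.8 ± 2.85 FPKM (SD, n = 4 each), with a log2FC of -0.65 (SE 0.0430). Its neighbour Serpinb10 overlaps it over 6476 bases on the same strand, and that gene had a mean of 0.0579 FPKM.

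Serpinf2 encodes alpha-2-antiplasmin, the main inhibitor of plasmin in blood, which is made by the liver. The gene (NCBI gene 18816) lies on chromosome 11 from 75431732 to 75439591, on the minus strand. It had 7, 6, 6 and 0 reads in HFHG replicates 1 to 4 and 6, 9, 2 and 12 reads in LG replicates 1 to 4. These were 0.0597 ± 0.0400 and 0.0931 ± 0.0542 FPKM (SD, n = 4 each). The groups overlapped, and a difference was not detectable at this depth. The 0 reads in HFHG replicate 4 allow up to 3 reads, or 0.0375 FPKM, for counting error only.

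**Figure D2:**
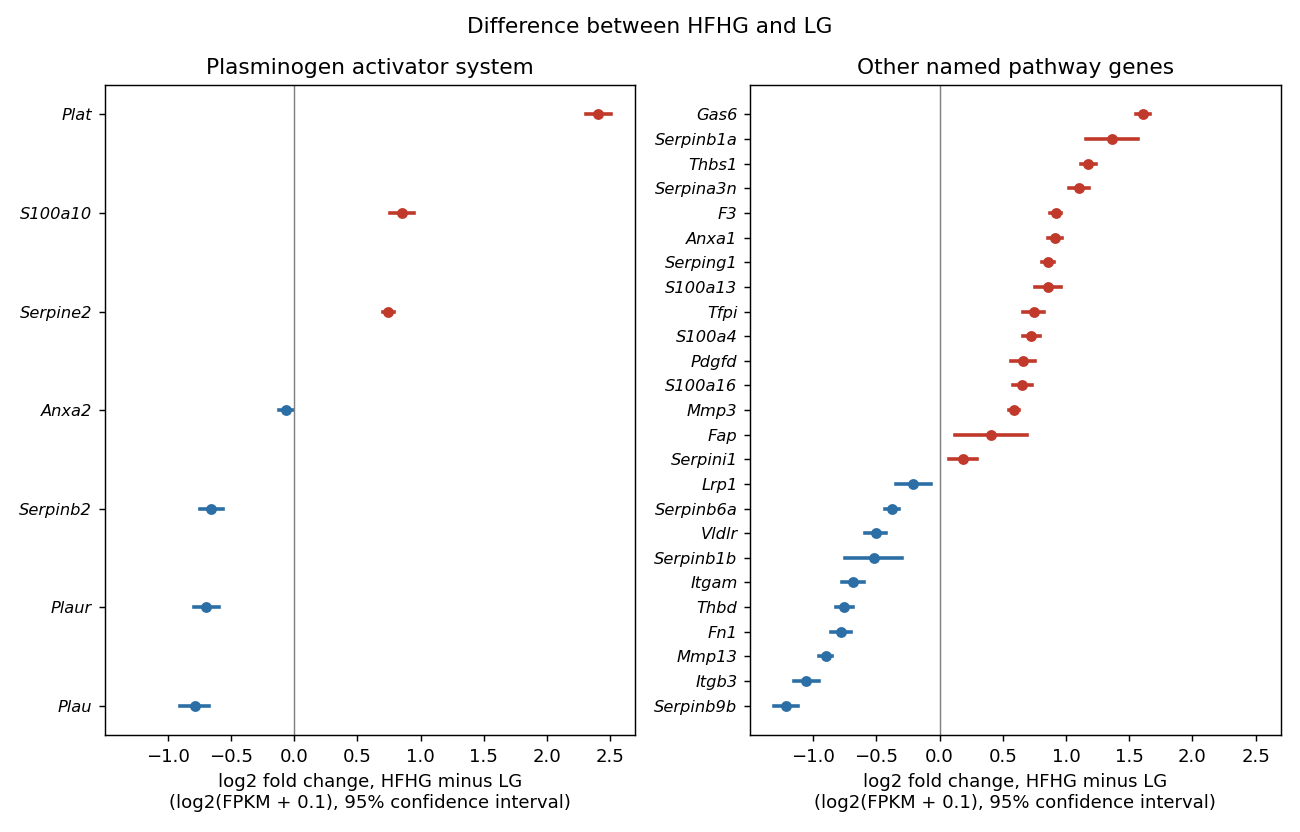
Log2 fold changes of HFHG minus LG on the log2(FPKM + 0.1) scale, with the 7 genes of the activator system that passed the filter on the left and 25 other named pathway genes on the right. Dots are limma estimates and lines their 95% confidence intervals (red above 0, blue below 0). Plat at 2.41 lies above Gas6 at 1.61, the highest of the other genes.

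Plau, Plaur and Serpinb2 are also expressed by macrophages, so macrophage markers were read beside them. The 8 markers (Ptprc, Csf1r, Adgre1, Cd68, Lyz2, C1qa, Cd163 and Fcgr1) summed to 1705 to 1755 FPKM in HFHG and 1863 to 1942 FPKM in LG, nearly all of it Lyz2 (1615 to 1811 FPKM over the 8 libraries). Of the 7 markers tested, 5 were called lower in HFHG and 0 higher, beside 30.8% and 34.0% of all 11710 genes. Cd163 was below 0.5 FPKM in all libraries. The size of the difference varied between the markers. The log2FC was -0.97 for C1qa, -0.52 for Adgre1, -0.31 for Cd68, -0.13 for Csf1r and -0.11 for Lyz2, all called lower. It was -0.19 for Ptprc and 0.09 for Fcgr1, which were not called. C1qa was 18.6 ± 0.549 FPKM in HFHG and 36.6 ± 2.68 FPKM in LG, whereas Csf1r was 7.92 ± 0.356 and 8.69 ± 0.306 FPKM (SD, n = 4 each) with overlapping libraries. The called macrophage markers were thus lower in HFHG, in the same direction as Plau, Plaur and Serpinb2. Their part in these results was not tested.

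**Figure D3:**
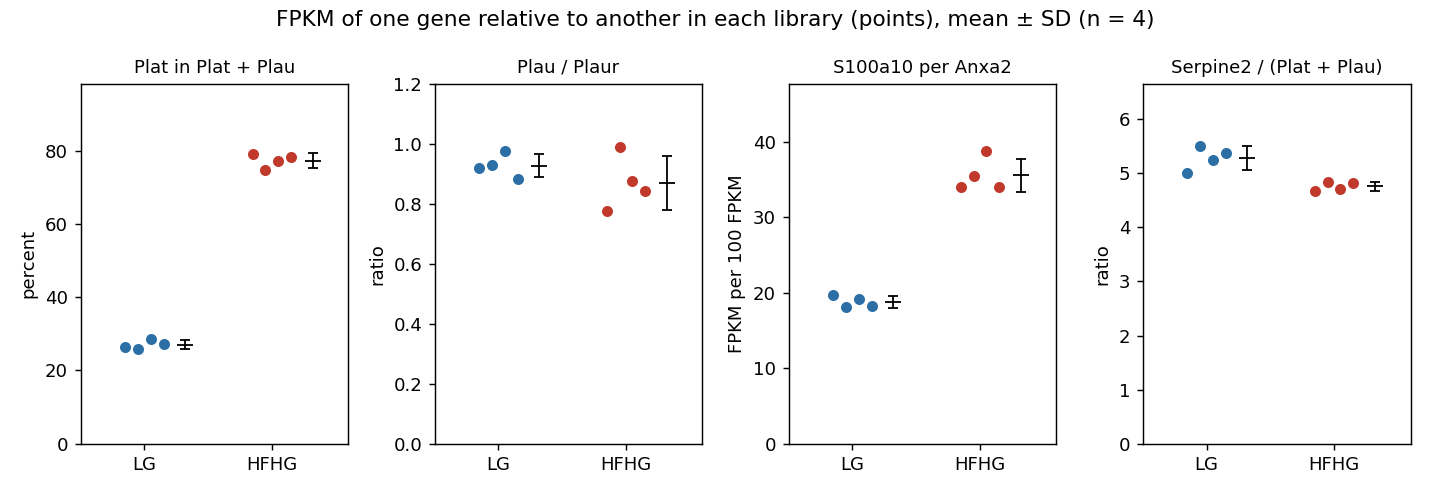
The FPKM of one gene relative to another within each library, with axes starting at 0. Points are libraries (LG blue, HFHG red), and the bars beside them are the mean ± SD of 4 libraries. Plat makes up 77.3% of the activator FPKM in HFHG and 27.0% in LG on average, while the ratio of Plau to Plaur overlaps between the groups.

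The transcript of the zymogen was near absent. Plasminogen protein, in the cells or in the serum of the medium, was not measured. Plg, which encodes plasminogen, had 14 reads in HFHG and 10 reads in LG when all 4 libraries of a group were summed, at 0.0350 ± 0.0455 and 0.0253 ± 0.0292 FPKM (SD, n = 4 each). The values overlapped (p = 0.8286 by an exact two-sided permutation test, for which 0.0286 is the smallest p that 4 against 4 libraries allow). Of the 11 zymogens and activating proteases, 9 were below the filter, with a highest value of 0.602 FPKM. Of the remaining genes, Fap rose from 1.05 ± 0.187 to 1.42 ± 0.127 FPKM (SD, n = 4 each, log2FC 0.41, adjusted p = 0.0150 by limma), and St14, a membrane serine protease, was not called (log2FC 0.42, adjusted p = 0.0691 by limma). St14 is named as the only other tested gene of this list, after its value was seen. Fap encodes a membrane protease known to trim alpha-2-antiplasmin.

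Among 8 other inhibitors, 4 were tested, of which 2 rose in HFHG, 1 fell and 1 was not called. The list's median log2FC was 0.09. Serping1, the C1 inhibitor, rose from 304 ± 7.92 to 551 ± 4.13 FPKM (SD, n = 4 each, log2FC 0.86, adjusted p = 6.2e-12 by limma). Serpini1, neuroserpin, an inhibitor of tissue-type activator, rose by less, with a log2FC of 0.18 (adjusted p = 0.00747 by limma). Serpinb6a, an intracellular serpin, fell from 287 ± 2.47 to 221 ± 7.66 FPKM (SD, n = 4 each, log2FC -0.38, adjusted p = 5.1e-08 by limma).

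Of the 24 docking and clearance receptors and their ligands, 20 were tested, with 4 higher in HFHG, 10 lower and 6 not called. The median log2FC was -0.10. Thbs1, a matrix glycoprotein known to bind plasminogen, rose from 806 ± 31.5 to 1821 ± 31.6 FPKM (SD, n = 4 each, log2FC 1.18, adjusted p = 2.6e-12 by limma). Itgb3, the beta subunit of a vitronectin receptor known to associate with Plaur, fell from 14.3 ± 0.708 to 6.84 ± 0.170 FPKM (SD, n = 4 each, log2FC -1.05, adjusted p = 8.2e-10 by limma). Itgam, the alpha subunit of the leukocyte integrin Mac-1 and itself a macrophage gene, fell with a log2FC of -0.69 (adjusted p = 9.5e-09 by limma). Vldlr, a receptor that takes up serpin complexes, fell with a log2FC of -0.51 (adjusted p = 1.6e-07 by limma).

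Lrp1, the main clearance receptor of activator and inhibitor complexes, had 185, 203, 195 and 201 FPKM in HFHG replicates 1 to 4. It had 241, 241, 233 and 192 FPKM in LG replicates 1 to 4. LG replicate 4 lay within the HFHG range, and the other LG libraries lay above it. The log2FC was -0.21 (adjusted p = 0.0110 by limma). It was -0.28 without LG replicate 4, and the call was lost after rescaling to the same sum (adjusted p = 0.0736 by limma) and after quantile normalization (adjusted p = 0.135).

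Of the 16 substrates, 12 were tested, of which 4 rose in HFHG and 8 fell, and the median log2FC was -0.26. Mmp13, a collagenase whose proenzyme plasmin can activate, fell from 2652 ± 73.9 to 1421 ± 21.5 FPKM (SD, n = 4 each, log2FC -0.90, adjusted p = 5.9e-12 by limma). Fn1, fibronectin, fell from 809 ± 36.6 to 471 ± 17.6 FPKM (SD, n = 4 each, log2FC -0.78, adjusted p = 9.2e-10 by limma). Mmp3, stromelysin 1, rose from 1491 ± 16.6 to 2243 ± 39.97 FPKM (SD, n = 4 each, log2FC 0.59, adjusted p = 6.6e-11 by limma). Pdgfd, a growth factor that urokinase can activate, rose with a log2FC of 0.66 (adjusted p = 2.9e-08 by limma). The metalloproteinases of this list thus changed in both directions.

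Of the 11 genes of the clotting start and thrombin receptors, 8 were tested, with 5 higher in HFHG and 3 lower, and the median log2FC was 0.49. Gas6, a vitamin K-dependent ligand of the TAM receptors, rose from 86.3 ± 2.71 to 264 ± 3.63 FPKM (SD, n = 4 each, log2FC 1.61, adjusted p = 2.0e-13 by limma). F3, tissue factor, which starts clotting, rose from 416 ± 8.45 to 787 ± 8.05 FPKM (SD, n = 4 each, log2FC 0.92, adjusted p = 2.1e-12 by limma). Tfpi, the inhibitor of tissue factor, rose as well, with a log2FC of 0.74 (adjusted p = 4.7e-09 by limma). Thbd, thrombomodulin, fell from 58.0 ± 1.89 to 34.4 ± 0.796 FPKM (SD, n = 4 each, log2FC -0.75, adjusted p = 5.0e-10 by limma).

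The relatives of the docking pair were all expressed. Of 14 annexin and S100 genes, 8 rose in HFHG, 4 fell and 2 were not called, with a median log2FC of 0.25. Anxa1 rose from 314 ± 9.99 to 591 ± 8.08 FPKM (SD, n = 4 each, log2FC 0.91, adjusted p = 8.9e-12 by limma). S100a4, a calcium-binding protein known to bind Anxa2, rose from 921 ± 29.5 to 1523 ± 61.1 FPKM (SD, n = 4 each, log2FC 0.73, adjusted p = 5.8e-10 by limma). S100a13 and S100a16 rose with log2FCs of 0.86 (adjusted p = 6.4e-09 by limma) and 0.66 (adjusted p = 5.3e-09 by limma). S100a10, with 0.85, was thus close in size to its relative S100a13. The 4 relatives named so far were picked for the largest absolute log2FC in this contrast. The 4 that fell were Anxa5 (log2FC -0.60), Anxa3 (-0.34), Anxa7 (-0.20) and Anxa4 (-0.17), named after their values were seen.

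Of 14 other serpins, 9 were tested, with 4 higher in HFHG, 3 lower and 2 not called, and the median log2FC was 0.13. Serpina3n, a secreted protease inhibitor, rose from 35.9 ± 1.78 to 77.2 ± 1.66 FPKM (SD, n = 4 each, log2FC 1.10, adjusted p = 5.2e-11 by limma). Serpinb1a, an inhibitor of neutrophil proteases, rose from 1.23 ± 0.150 to 3.32 ± 0.228 FPKM (SD, n = 4 each, log2FC 1.37, adjusted p = 6.1e-08 by limma). At this low level the size depended on the pseudocount, and with a pseudocount of 1 the log2FC of Serpinb1a was 0.95. Serpinb9b fell from 19.7 ± 0.722 to 8.42 ± 0.318 FPKM (SD, n = 4 each, log2FC -1.21, adjusted p = 1.1e-10 by limma). Serpinb1b fell with a log2FC of -0.52 (adjusted p = 0.000718 by limma). Serpinb1a and Serpinb1b are close paralogs, and how shared reads were assigned is not given in the sources used here.

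Over the 7 lists, 69 of 98 genes were tested, of which 28 rose in HFHG, 29 fell and 12 were not called. These were 40.6% and 42.0% of the tested pathway genes, beside 34.0% and 30.8% of all 11710 genes. The counts of each list are also to be read against the shares of all genes. The lists were chosen with earlier results of these data known, so no enrichment is read from these shares. The median log2FC of the tested pathway genes was 0.01, against 0.02 for all tested genes. Without LG replicate 4 the counts were 31 and 29.

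**Figure D4:**
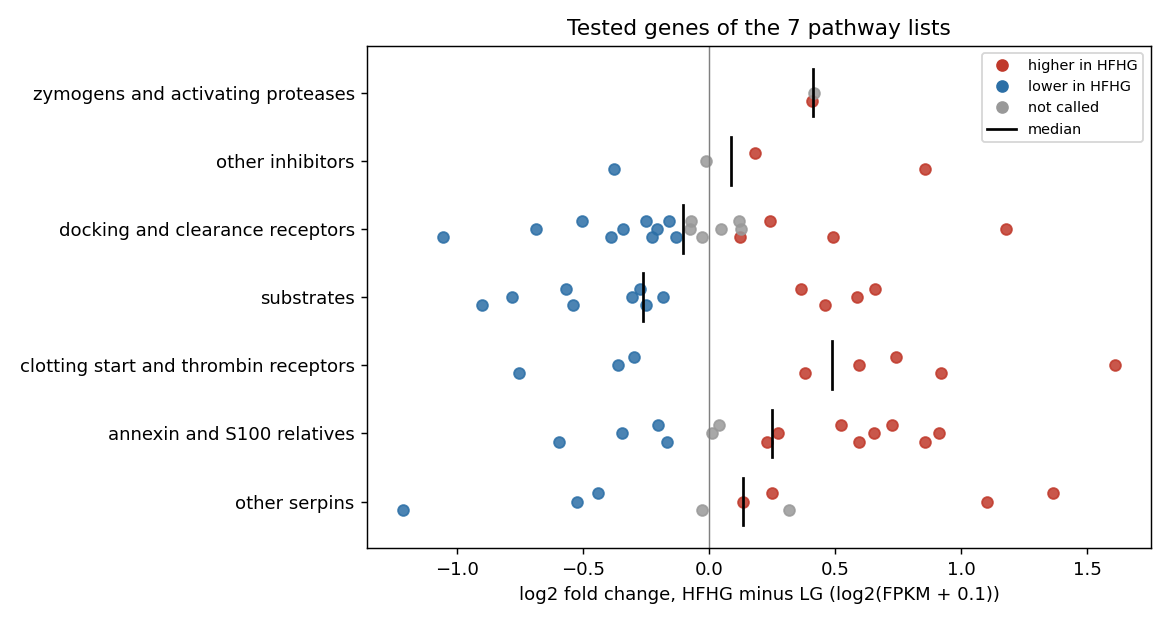
Log2 fold changes of HFHG minus LG on the log2(FPKM + 0.1) scale for the 69 tested genes of the 7 pathway lists, 1 row per list. Dots are genes (red higher and blue lower, called by limma at an adjusted p-value below 0.05, grey not called), and black lines are list medians. Each list except the zymogens and activating proteases has genes called in both directions.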

How the data were processed

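mRNA of 8 TSC libraries (4 HFHG with 25.5 mM glucose and 300 µM palmitic acid, 4 LG with 5.5 mM glucose) was sequenced with a stranded mRNA-seq kit. Groups and replicate numbers were taken from the labels, doses from the study's methods. The authors deposited FPKM values for 19301 genes, and replicates were not pooled. HISAT2 2.1.0 and mm10 are named in the submitters' processing notes, and the counting program and annotation are not given in the sources used here. FPKM is relative to each library's total, so a shift in abundant genes moves the others.

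The 8 genes and the lists were chosen with earlier results of these data known. Whole reads (within 0.0001) were recovered for 19301 genes (100%). limma 3.58.1 in R 4.3.3 was fitted to log2(FPKM + 0.1) of 11710 genes with at least 0.5 FPKM in at least 4 libraries, with an intensity trend, without covariates and with Benjamini-Hochberg adjustment over all of them. The fit and the recovery of reads were tested on simulated data. The named genes were the 8 genes, Plg and Lrp1, and from each list the 4 genes with the largest absolute log2 fold change at an adjusted p below 0.05 and a mean of at least 1 FPKM. The 5 genes most like Plat were ranked by Pearson's r. 1 listed gene is not reported here and enters no count of a list. Gene positions came from GENCODE M21 (GRCm38), promoter windows from RefSeq, of which the 250 bases before the start were used. A planned comparison of protein sequences was not run. As alternatives, the pseudocount, the filter, the scaling, the variance model and the replicates were varied, and voom was run on the recovered reads.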

Additional observations from a re-analysis of the deposited data

Results flagged for a closer look

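Values of the named genes in each group of 4 libraries were searched for a library far from the other 3 (a gap to the nearest library, relative to the group's range, above Dixon's 95% critical value). It was found in 10 of 68 groups, where chance gives about 1 in 20 for independent normal values. The groups come from the same 8 libraries and are not independent, so no excess is read from this count. In LG replicate 4, Serpine2 was 309 FPKM (the others 299 to 301), Serping1 was 315 FPKM (the others 299 to 300.5) and Lrp1 was 192 FPKM (the others 233 to 241). In LG replicate 2, Gas6 was 82.2 FPKM (the others 87.3 to 87.8) and Anxa1 was 328 FPKM (the others 307 to 310.2). In LG replicate 1, Serpini1 was 6.17 FPKM (the others 6.62 to 6.67) and Serpinb1a was 1.45 FPKM (the others 1.13 to 1.19). In HFHG replicate 1, Anxa2 was 355 FPKM (the others 339 to 341) and Fn1 was 445 FPKM (the others 479 to 480.03). In HFHG replicate 4, Serpinf2 was 0 FPKM (the others 0.0760 to 0.0855). Except for Lrp1, Anxa2 and Serpinf2, these libraries stayed on their own group's side of the other group.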

How the results depend on the processing

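Under 18 alternatives, the log2 fold changes of Plat (2.34 to 2.47), Plau (-0.84 to -0.73), Plaur (-0.73 to -0.63), Serpinb2 (-0.69 to -0.60), Serpine2 (0.73 to 0.93) and S100a10 (0.82 to 0.91) kept their direction. Anxa2 turned from -0.07 to 0.18 after quantile normalization, where it was called higher (4 of the 7 genes higher in place of 3), and the cause was not tested. It was called lower under 9 alternatives only. It was not called without HFHG replicate 2, 3 or 4, without LG replicate 1 or 4, without the filter, with the replicate block or after rescaling to the same sum, with log2 fold changes of -0.07 to -0.01. Like the other fold changes of the 8 genes, these calls are a description. The pathway genes called were 28 to 32 higher and 26 to 30 lower. Of the 25 named ones, calls were lost for Lrp1 (rescaled sum, -0.15, and quantile normalization, -0.13) and Fap (quantile normalization, 0.28). Among the zymogens and activating proteases, 1 gene was called higher, and 2 without LG replicate 4, without HFHG replicate 2, without the filter, after rescaling to the same sum, with the replicate block or with voom, and 0 after quantile normalization. The median of all genes was 0.07 after rescaling to the same sum, 0.00113 with median-ratio scaling and -0.02 after quantile normalization. No pairing by replicate number was seen. Deviations of same-numbered libraries had correlations of -0.0736 to -0.00558, and 0 of 8 libraries correlated best with their own number. A small shared effect could be missed by this comparison. With the replicate block, 7342 genes in all were called in place of 7592, with 29 and 29 pathway genes higher and lower. Depth limits Serpinf2 and Plg, with at most 12 and 10 reads in a library.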
